A study of Mus musculus with 18 samples.

Results

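The genes described here are 7 enzymes of haem synthesis, Alas1, Alad, Uros, Urod, Cpox, Ppox and Fech, found by symbol in a table of 14419 genes. All 7 were in the table, each once. The values come from RNA sequencing of sorted marrow cells. Adult C57BL/6 males had received tamoxifen, a modulator of estrogen receptors, or the corn oil vehicle. The sorted cells were long-term stem cells (LT), short-term stem cells (ST) and multipotent progenitors (MPP), the usual readings of the labels' LT-HSCs, ST-HSCs and MPPs. The LT and ST groups were treated for 2 weeks and the MPP groups for 1 week, so the cell population and the duration cannot be told apart in any comparison of MPP with the others. Each of the 6 groups held 3 libraries, 18 in all, which the design text calls biological replicates. The sample titles number the MPP and LT libraries in a single sequence and start again for the ST libraries. What this numbering stands for is not given, so comparisons of ST with the others may include a difference in handling. The sources used here do not give the gates of the sort, or say whether 1 library was 1 mouse. No transgene or deletion is named for any group.

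Haem is the iron-holding ring of haemoglobin, cytochromes and other proteins. Its synthesis starts in mitochondria, where ALAS joins glycine and succinyl-CoA, continues in the cytosol through enzymes that include those of Alad, Uros and Urod, and ends in mitochondria with those of Cpox, Ppox and Fech. Alas1 encodes the form of the first enzyme found in all tissues and Alas2 the form of red cell precursors, which make most of the body's haem. The red cell lineage arises from the stem cells studied here and raises haem synthesis as it matures.

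Cpox and Alas1 were the members that passed the test for tamoxifen in ST cells, so their promoters are shown: the stretch from 250 bases before to 50 bases after an annotated start, from RefSeq on GRCm38.p6. The deposited table itself was made on NCBIM37 and holds no coordinates. Cpox lies at chr16:58669958-58670257 on the plus strand, and the Alas1 window of one of its 2 listed starts at chr9:106247681-106247980 on the minus strand. Capitals mark the matches of the motifs named next.
Cpox: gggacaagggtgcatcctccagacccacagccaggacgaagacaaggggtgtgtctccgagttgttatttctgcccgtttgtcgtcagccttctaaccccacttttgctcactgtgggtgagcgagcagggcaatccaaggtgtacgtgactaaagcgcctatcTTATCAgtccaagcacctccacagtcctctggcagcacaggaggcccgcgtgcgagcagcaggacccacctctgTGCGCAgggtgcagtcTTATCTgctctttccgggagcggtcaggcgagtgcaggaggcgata
Alas1: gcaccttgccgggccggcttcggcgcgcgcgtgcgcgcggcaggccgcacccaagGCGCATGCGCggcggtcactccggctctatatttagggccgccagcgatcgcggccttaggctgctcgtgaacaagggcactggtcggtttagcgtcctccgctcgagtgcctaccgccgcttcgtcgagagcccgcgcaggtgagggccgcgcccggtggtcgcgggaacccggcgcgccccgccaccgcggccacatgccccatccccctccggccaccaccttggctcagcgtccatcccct
Matches were sought on both strands. The letters were the GATA motif in the forms AGATAA (in 11.2% of 32851 promoters of the same length) and TGATAA (9.05%), the E-box CACGTG (7.15%), the NRF1 core TGCGCA (7.76%), the estrogen response half-site AGGTCA (16.3%), the CACCC box CCACACCC (3.56%) and the full estrogen response element, GGTCA followed by its inverted repeat after any 3 bases (0.07%). A longer NRF1 form, GCGCATGCG (1.75%), was added after these sequences had been seen. The Cpox promoter held both GATA forms, each read on the opposite strand, and the NRF1 core. Both Alas1 windows held the longer NRF1 form and no other motif of the set. Both Alad windows, 1 of 2 Uros windows and the Urod window held the E-box, the other Uros window held TGATAA, and Ppox held none. Fech was not matched. A match describes letters only, and binding was not measured.

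Values are normalised CPM, that is reads per library on a common scale. The libraries held from 2728800 to 5279821 reads in the listed genes. ST oil libraries held 2728800 to 3267591 and ST tamoxifen libraries 3611749 to 3982982, so depth went with treatment in ST cells. The mean of a member over the 18 libraries ran from 9.25 for Uros to 76.7 for Cpox, against a median of 20.3 over all genes. Uros rested on 13 to 63 reads per library and Cpox on 60 to 838. Of 10 stem and progenitor markers, Slamf1, a stem cell marker, averaged 25.5 in LT oil, 19.1 in ST oil and 0.785 in MPP oil. Flt3, a progenitor receptor, averaged 83.1, 142 and 681. Against LT oil, ST oil had 2 of the 10 higher and 4 lower in limma (12.5% and 16% of all genes). MPP oil had 3 higher and 5 lower, where 14.8% of all genes passed in either direction. The identity of the sorted cells was not tested. LT tamoxifen library A stood apart: 25.5% of its reads were mitochondrial ribosomal RNA, where libraries B and C of that group had 17.7% and 18.7% and the LT oil libraries 18.2% to 18.7%. ST tamoxifen library A had 24.4%, against 21.5% and 19.3% in libraries B and C and 18.3% to 21.9% in ST oil. That library was the highest ST library in Alad, Uros, Urod and Cpox. In MPP tamoxifen library 2 the 4 globin genes summed to 361, against 77.2 and 16.5 in its group. Members' tamoxifen differences are also given without LT tamoxifen library A in LT cells and without MPP tamoxifen library 2 in MPP cells.

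**Figure D1:**
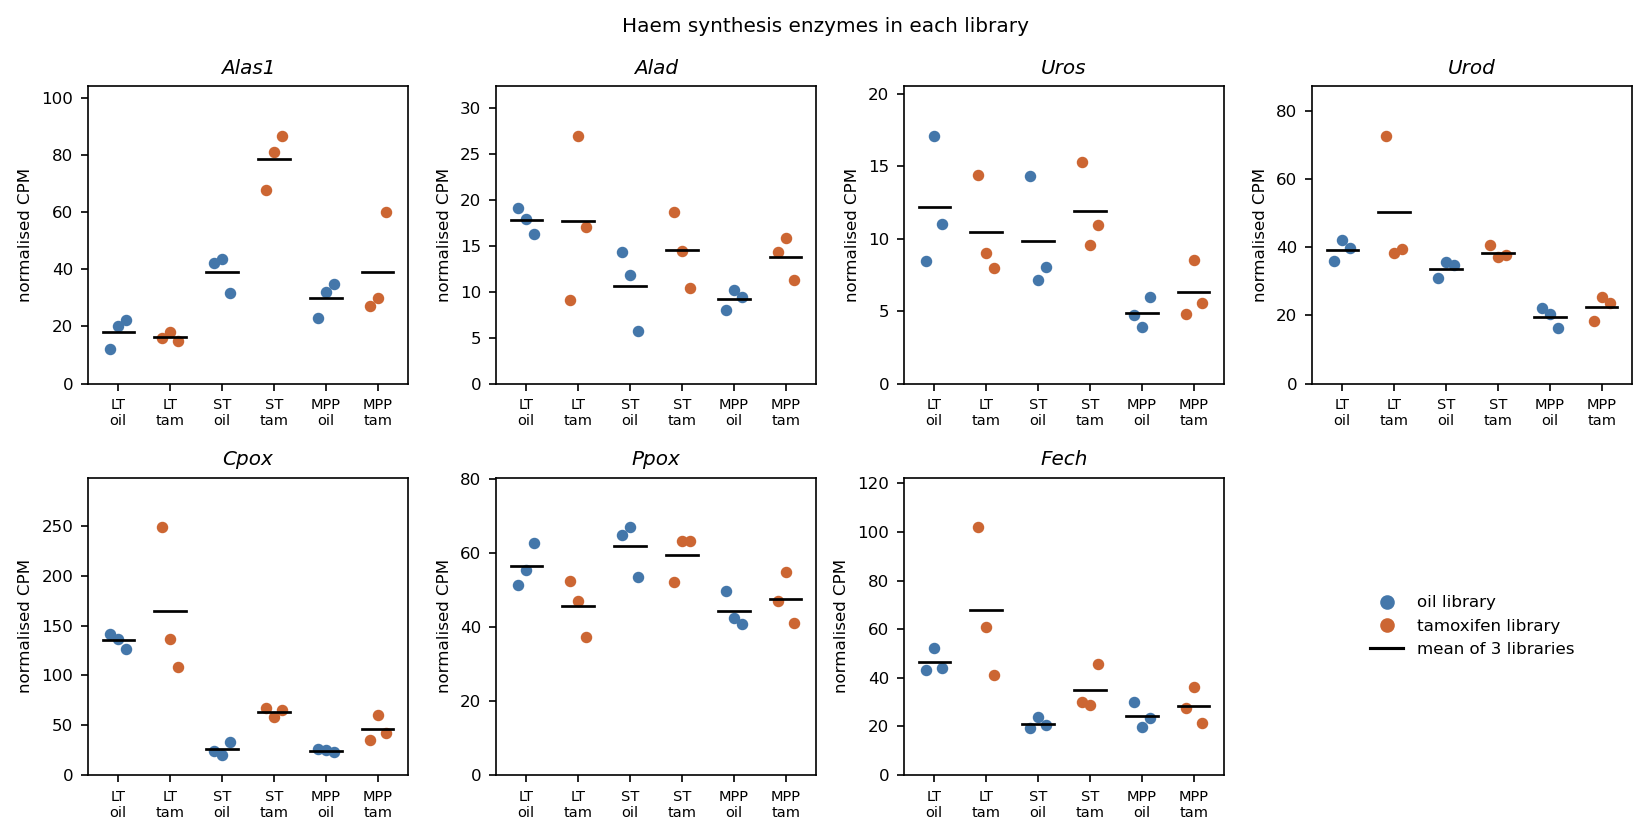
Normalised CPM of the 7 enzymes (vertical axes, each from 0) in the 6 groups. Points are libraries and lines are means of 3. The 3 ST tamoxifen libraries lie above all ST oil libraries in Alas1, Urod, Cpox and Fech, and LT tamoxifen library A is the highest LT library in Urod, Cpox and Fech.

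In ST cells Cpox and Alas1 were higher after 2 weeks of tamoxifen, while the other 5 enzymes did not pass the test. Cpox, which oxidises coproporphyrinogen, went from 25.8 ± 6.57 to 63.4 ± 4.90 (SD, n = 3 each), and Alas1, the first step, from 39.2 ± 6.46 to 78.7 ± 9.78. In LT and MPP cells no enzyme passed. In bulk libraries such as these, fewer cells of a type and less RNA per cell cannot be told apart.

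Alas1 (ENSMUSG00000032786) measured 42.3, 43.6 and 31.8 in the ST oil libraries A, B and C and 67.9, 81.3 and 86.9 in the ST tamoxifen ones. All treated libraries lay above all oil libraries. The difference was 0.99 ± 0.25 (SE) on the log2(value + 1) scale, 95% interval 0.48 to 1.51, with a limma adjusted p of 0.013. It no longer passed when ST oil library C was left out (adjusted p = 0.0523), nor without ST tamoxifen library C (0.0639), and over all alternatives the adjusted p ran from 0.00156 to 0.0639. In LT cells the oil libraries held 12.2, 20.3 and 22.1 and the tamoxifen libraries 15.9, 18.1 and 14.9. Those groups overlapped (-0.11 ± 0.25, adjusted p = 0.887, and -0.10 without library A). In MPP cells the oil libraries held 22.8, 32.2 and 35.0 and the tamoxifen libraries 27.1, 29.8 and 60.0. MPP tamoxifen library 3 was above every oil library and the other treated ones were not (0.30 ± 0.25, adjusted p = 0.959, and 0.44 without library 2).

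Alad (ENSMUSG00000028393) encodes the enzyme that joins a pair of ALA molecules into porphobilinogen. It measured 14.3, 11.8 and 5.72 in ST oil and 18.7, 14.4 and 10.4 in ST tamoxifen, which overlapped (0.47 ± 0.32, adjusted p = 0.377). In MPP cells it held 7.97, 10.2 and 9.37 in oil and 14.3, 15.8 and 11.3 with tamoxifen. Those groups did not overlap, yet the difference of 0.53 ± 0.32 had an adjusted p of 0.931. Without MPP tamoxifen library 2 the MPP difference of Alad was 0.44. In LT cells oil gave 19.1, 17.9 and 16.3 and tamoxifen 9.07, 27.0 and 17.0, with library A the lowest and B the highest of all 6 (-0.12 ± 0.32, adjusted p = 0.907, and 0.26 without library A).

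Uros (ENSMUSG00000030979), whose enzyme closes the porphyrin ring, had the lowest level of the 7. It measured 14.3, 7.12 and 8.06 in ST oil and 15.3, 9.57 and 10.9 in ST tamoxifen (0.29 ± 0.32, adjusted p = 0.619). In LT cells it measured 8.44, 17.1 and 11.0 in oil and 14.4, 8.99 and 7.97 with tamoxifen (-0.19 ± 0.32, adjusted p = 0.847). In MPP cells it measured 4.73, 3.87 and 5.94 in oil and 4.77, 8.51 and 5.56 with tamoxifen (0.30 ± 0.32, adjusted p = 0.975, and 0.09 without library 2). Without LT tamoxifen library A the LT difference was -0.42. The groups overlapped in each population.

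Urod (ENSMUSG00000028684), which removes carboxyl groups from uroporphyrinogen, measured 30.8, 35.6 and 34.7 in ST oil and 40.5, 37.0 and 37.6 in ST tamoxifen. All treated libraries lay above all oil libraries, but by little (0.18 ± 0.21, adjusted p = 0.621). In LT cells it held 36.0, 42.1 and 39.7 in oil and 72.7, 38.4 and 39.5 with tamoxifen (0.29 ± 0.21, adjusted p = 0.581). The high value was library A, and without it the difference was -0.01. In MPP cells it held 22.0, 20.5 and 16.2 in oil and 18.4, 25.5 and 23.5 with tamoxifen, which overlapped (0.19 ± 0.21, adjusted p = 0.976, and 0.09 without library 2).

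Cpox (ENSMUSG00000022742) measured 24.5, 20.0 and 33.0 in ST oil and 67.1, 57.9 and 65.4 in ST tamoxifen, with no overlap. The difference was 1.29 ± 0.23, 95% interval 0.81 to 1.77, with a limma adjusted p of 0.00171, and it passed under all 19 alternatives run (adjusted p from 1.22e-05 to 0.0145). Even so, the highest ST tamoxifen library stayed below every LT library, treated or not. In LT cells Cpox held 142, 137 and 127 in oil and 249, 137 and 108 with tamoxifen, so the treated libraries lay on both sides of the oil ones (0.19 ± 0.23, adjusted p = 0.78, and -0.15 without library A). In MPP cells it held 25.8, 25.1 and 22.8 in oil and 34.8, 60.7 and 42.1 with tamoxifen. Those groups did not overlap, and the difference of 0.84 ± 0.23, 95% interval 0.36 to 1.32, had an unadjusted p of 0.00151 and a limma adjusted p of 0.356. Without MPP tamoxifen library 2 it was 0.62. The MPP difference passed with library weights (adjusted p = 0.007) and when LT tamoxifen library A was left out of the shared fit (0.0295), and over all alternatives the adjusted p ran from 0.007 to 0.998.

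Ppox (ENSMUSG00000062729), the enzyme before the last, had the narrowest range of the 7: its highest library exceeded its lowest 1.79-fold, against 12.4-fold for Cpox. It measured 65.0, 67.1 and 53.5 in ST oil and 52.2, 63.3 and 63.3 in ST tamoxifen (-0.05 ± 0.16, adjusted p = 0.88). In LT cells it held 51.4, 55.6 and 62.8 in oil and 52.5, 47.2 and 37.4 with tamoxifen (-0.31 ± 0.16, adjusted p = 0.415, and -0.42 without library A). In MPP cells it held 49.9, 42.5 and 40.8 in oil and 47.0, 55.0 and 41.2 with tamoxifen (0.10 ± 0.16, adjusted p = 0.994, and -0.01 without library 2). All 3 pairs of groups overlapped. In the GENCODE annotation of GRCm38, 17.5% of the exon bases of Ppox lie over exons of B4galt3 on the other strand, against 7.53% for Alas1 and 3.06% for Cpox with their own antisense neighbours. Reads of such partners cannot be told apart without strand, and the sources used here do not say whether strand was counted.

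Fech (ENSMUSG00000024588), whose enzyme places the iron, measured 19.3, 23.7 and 20.4 in ST oil and 29.9, 28.7 and 45.8 in ST tamoxifen. The groups did not overlap, and the difference of 0.67 ± 0.25 had a limma adjusted p of 0.0953. It passed in 1 of 19 alternatives, the one without LT tamoxifen library A in the shared fit (0.0269). In LT cells Fech held 43.2, 52.1 and 44.2 in oil and 102, 60.9 and 41.0 with tamoxifen, with library A the highest and C the lowest of the 6 (0.45 ± 0.25, adjusted p = 0.461). Without library A the LT difference of Fech was 0.11. In MPP cells it held 29.9, 19.9 and 23.4 in oil and 27.7, 36.4 and 21.5 with tamoxifen, which overlapped (0.21 ± 0.25, adjusted p = 0.986, and 0.02 without library 2).

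In ST cells, then, 2 of 7 members passed in limma, both higher, where 9.61% of all genes passed and 6.01% were higher. edgeR and DESeq2 on the recovered reads also called 2. Of the members, 4 had groups that did not overlap (Alas1, Urod, Cpox, Fech), where 27% of all genes did not, and the median member difference was 0.47 against 0.01 over all genes. In MPP cells limma called 0 of 7, with 1 under an unadjusted p of 0.05 and 0 by edgeR and by DESeq2, where 0.0555% of all genes passed. Of the MPP members, 2 had groups that did not overlap (14.9% of all genes), and all 7 differences were above 0, with a median of 0.30. MPP tamoxifen library 2 was the highest MPP library in 6 of the 7 members, and without it 6 differences were above 0, with a median of 0.09. In LT cells limma called 0 of 7, with 0 under an unadjusted p of 0.05 and 0 by either count tool, where 0.416% of all genes passed. No LT member had groups that did not overlap (18.4% of all genes), and 3 of 7 differences were above 0.

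**Figure D2:**
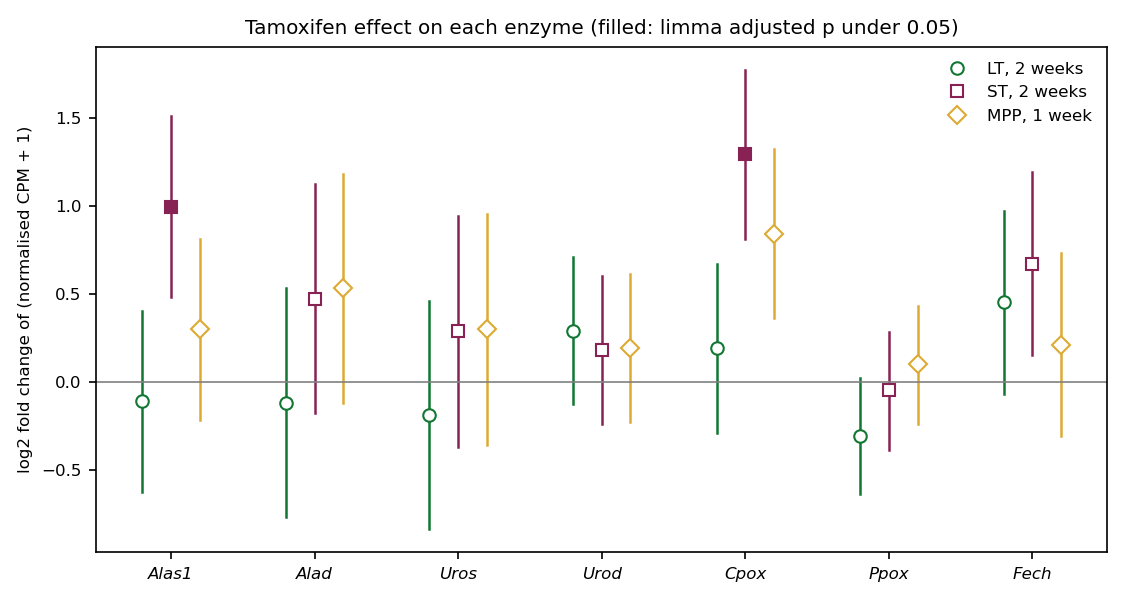
Tamoxifen minus oil for each enzyme on the log2(normalised CPM + 1) scale, with 95% intervals, in LT, ST and MPP cells. Filled marks passed the limma test: Alas1 and Cpox in ST cells, at 0.99 and 1.29.

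Whether the response differed between populations was tested directly. Between ST and LT the Alas1 effects differed by 1.11 ± 0.35 (limma adjusted p = 0.173) and the Cpox effects by 1.10 ± 0.33 (adjusted p = 0.16), neither past the threshold. The Cpox difference passed with library weights (adjusted p = 0.0176) and without LT tamoxifen library A (0.0151). Of all genes, 0.0555% passed, and 0 of 7 members did (2 under an unadjusted p of 0.05, 0 by edgeR, 0 by DESeq2). Between ST and MPP the differences were 0.69 ± 0.35 for Alas1 (adjusted p = 0.435) and 0.45 ± 0.33 for Cpox (0.615), with 0 of 7 members called by limma, 0 under an unadjusted p of 0.05, 0 by edgeR and 0 by DESeq2, against 0.00694% of all genes. Between LT and MPP they were -0.41 ± 0.35 (adjusted p = 0.902) and -0.65 ± 0.33 (0.867), with 0 of 7 members called by limma, 0 under an unadjusted p of 0.05, 0 by edgeR and 0 by DESeq2, and 0% of all genes called. The ST and LT comparisons with MPP also differ in duration.

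Among oil libraries the 7 enzymes did not keep one order across the populations. The mean was highest in LT cells for Cpox, Fech, Urod, Alad and Uros, while the mean of Alas1 was lowest there. Per kb of exon in LT oil the mean level was 20.3 for Cpox, 15.2 for Urod, 12.5 for Ppox, 9.49 for Alad, 3.41 for Uros, 3.36 for Fech and 2.95 for Alas1. In ST oil the order began with Ppox at 13.7 and Urod at 13.0, and Cpox was at 3.88. The length used was the union of all annotated exons, 13.8 kb for Fech and 1.87 kb for Alad, so ranks between genes depend on it. Before scaling by length Fech averaged 46.5 in LT oil and Alad 17.8. The sum of the 7 members was 312 to 343 normalised CPM in LT oil, 187 to 210 in ST oil and 154 to 163 in MPP oil.

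**Figure D3:**
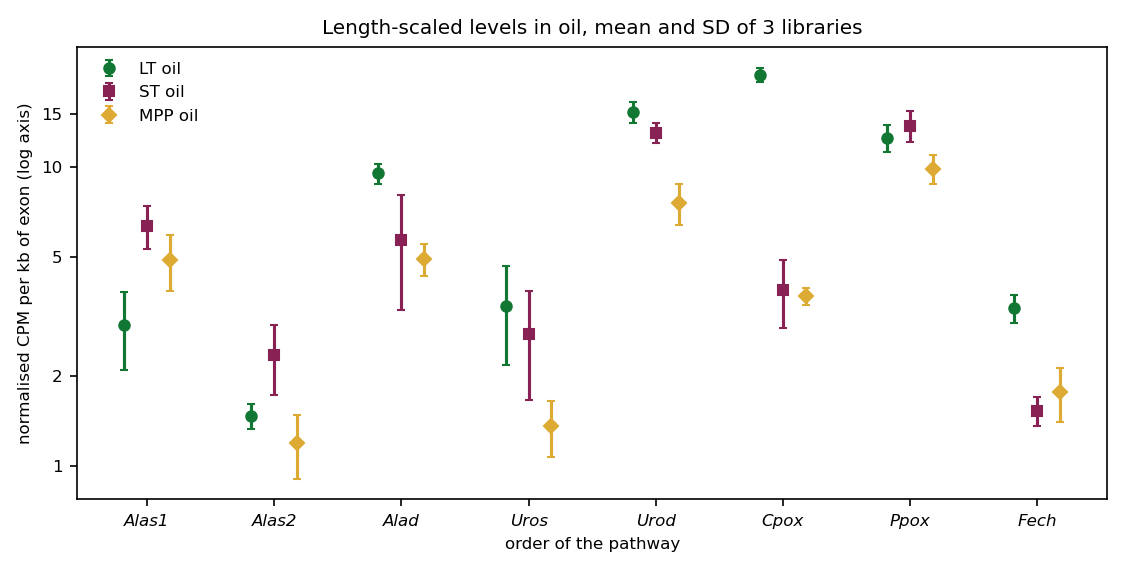
Mean ± SD of 3 oil libraries per kb of exon (log axis), in the order of the pathway, with Alas2 added. Cpox is highest in LT oil at 20.3 and near 3.88 and 3.69 in ST and MPP oil.

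Against LT oil, ST oil had 1 member higher (12.5% of all genes were higher) and 2 lower (16% of all genes), 28.5% of all genes passing in either direction. Alas1 was higher by 1.09 ± 0.25 (limma adjusted p = 0.00166), and its groups did not overlap. Cpox was lower by 2.37 on the log2 scale (-2.37 ± 0.23, adjusted p = 1.59e-07), from 135 ± 7.53 to 25.8 ± 6.57. Fech was lower too (-1.10 ± 0.25, adjusted p = 0.00185). Alad missed the threshold (-0.77 ± 0.32, adjusted p = 0.0685).

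Against LT oil, MPP oil had 4 members lower and none higher, where 7.01% of all genes were lower and 14.8% passed in all. Cpox was lower by -2.42 ± 0.23 (limma adjusted p = 8.6e-08), Urod by -0.98 ± 0.21 (0.00106), Uros by -1.14 ± 0.32 (0.0137) and Fech by -0.92 ± 0.25 (0.0131). Uros and Fech lost the call without MPP oil library 2 (adjusted p = 0.0738 and 0.0811) and without LT oil library B (0.127 and 0.0719). Alas1 was 0.71 ± 0.25 higher, short of the threshold (adjusted p = 0.0564), which it passed in 7 of 19 alternatives (adjusted p from 0.0156 to 0.322). Alad missed it in the other direction (-0.89 ± 0.32, limma adjusted p = 0.0605) and passed in 6 of 19 alternatives (0.00292 to 0.18). All 7 members had an unadjusted limma p under 0.05, where 3650 of 14419 genes did. edgeR called 4 members and DESeq2 5.

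Against ST oil, MPP oil had 3 members lower, where 13.9% of all genes were lower and 30.7% passed in all. These were Urod (-0.76 ± 0.21, limma adjusted p = 0.00574), Uros (-0.85 ± 0.32, 0.0441) and Ppox (-0.47 ± 0.16, 0.0291). Uros lost the call with a pseudocount of 4 (0.0526), with quantile normalisation (0.138) and in a fit of the compared groups alone (0.0537). It also lost it without MPP oil library 1, MPP oil library 2 or ST oil library A, and Ppox without MPP oil library 2 or 3 or ST oil library A or B (adjusted p of 0.0862 to 0.237 over these). Cpox gave no call (-0.04 ± 0.23, 95% interval -0.52 to 0.44).

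Alas2, the first enzyme's red cell form, did not pass for tamoxifen in any population. It averaged 4.36 over the 18 libraries, on 6 to 36 reads per library, with means from 2.86 to 5.61 over the 6 groups. In ST cells it went from 5.61 ± 1.48 to 3.82 ± 2.46 (limma adjusted p = 0.349). In LT cells it went from 3.54 to 4.74 (0.755). In MPP cells it went the other way from ST, from 2.86 ± 0.681 to 5.57 ± 2.38 (0.885). The MPP groups of Alas2 did not overlap, as in 14.9% of all genes.

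Genes around the pathway were counted by list for ST tamoxifen against ST oil, beside the 6.01% of all genes that were higher. No gene of the lists given was lower. Of 8 genes that supply glycine and succinyl-CoA 3 were higher: Dlst (63.5 to 99.2, adjusted p = 0.00341), Shmt2 (75.3 to 118, 0.0067) and Dld (92.4 to 141, 0.00762). Of 11 genes of iron uptake, storage and export 3 were higher, Pcbp1, an iron chaperone (69.8 to 105, 0.0231), Slc40a1, the iron exporter (6.71 to 12.3, 0.0386), and Tfrc, the transferrin receptor (78.1 to 117, 0.0413). Of these 11 edgeR called 1 and DESeq2 2: Slc40a1 and Tfrc each passed in 9 of 19 alternatives, with adjusted p up to 0.144 and 0.167, and Pcbp1 in 14. Of 15 mitochondrial iron genes 1 was higher, Hspa9 (201 to 274, 0.0245), and of 9 regulatory genes 1, Klf1, a red cell transcription factor (5.02 to 14.5, 0.031). In those lists only 4 of 15 and 4 of 9 differences were above 0, with medians of -0.04 and -0.01. Hspa9 passed in 13 of 19 alternatives and Klf1 in 11, while Dlst and Shmt2 passed in 19 and Dld in 18. Of 4 genes of haem breakdown 0 passed in limma (1 under an unadjusted p of 0.05), and of 3 of haem attachment 0 passed (0 unadjusted), with 0 in both lists by edgeR and by DESeq2. Over these 50 genes 8 were higher in ST cells (6 called by edgeR, 7 by DESeq2), while limma called 0 in LT cells (1 under an unadjusted p of 0.05) and 0 in MPP cells (5 unadjusted), and edgeR and DESeq2 also called 0 in either.

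**Figure D4:**
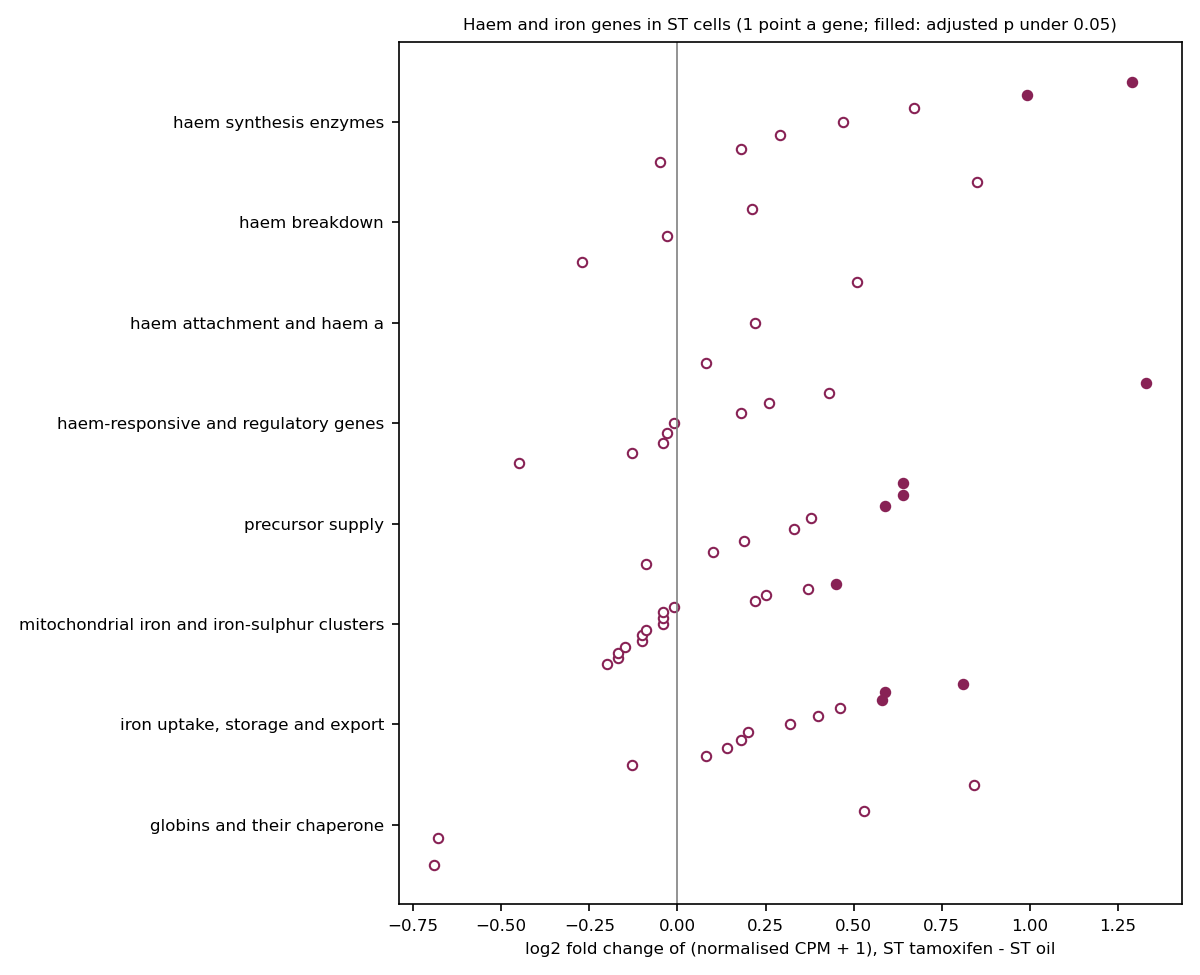
Each point is 1 gene, its tamoxifen difference in ST cells on the log2(normalised CPM + 1) scale, by list. Filled points passed the limma test; in the haem synthesis row these are Alas1 at 0.99 and Cpox at 1.29.

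Markers of red cell precursors differed between the groups as well. The sum of 15 erythroblast markers was 640 to 824 in LT oil, 131 to 146 in ST oil, 201 to 274 in ST tamoxifen, 62.2 to 261 in MPP tamoxifen, 43.4 to 60.0 in MPP oil and 779 to 1239 in LT tamoxifen. Its highest LT and MPP libraries were LT tamoxifen A and MPP tamoxifen 2, the same libraries that held the highest Cpox. The sum leaned on the most abundant markers: Ermap averaged 272 in LT oil, and Hemgn 61.2 in ST oil. In ST tamoxifen 6 of the 15 markers passed, all higher, among them Ermap (17.4 to 64.0, limma adjusted p = 0.00481), while edgeR called 3 and DESeq2 5, beside 6.01% of all genes higher. Of the 15 differences in ST cells 12 were above 0, with a median of 0.72. The rest were below 0: Hemgn (61.2 to 51.3), Epb4.2 (3.1 to 1.29) and Trim10 (0.781 to 0.667). In MPP cells limma called 2 of the 15, Ermap and Ank1, where 0.0555% of all genes passed, with 0 by edgeR and 3 by DESeq2. The Ank1 difference was 1.95 (limma adjusted p = 0.0351), and 1.44 with 0.159 without MPP tamoxifen library 2. Ermap measured 11.9, 43.2 and 23.2 in MPP tamoxifen against a mean of 4.81 in oil (2.07, limma adjusted p = 0.0491, and 1.63 with 0.058 without library 2). The summed globin level of ST libraries was 23.5 to 32.8 with oil and 20.5 to 36.4 with tamoxifen, and of these 4 genes limma, edgeR and DESeq2 called 0 (0 under an unadjusted p of 0.05 in limma). Hba-a1 averaged 3.45 in ST oil and 2.05 in ST tamoxifen, and Hbb-b1 12.5 and 7.77. Among other cell types in ST tamoxifen, limma, edgeR and DESeq2 each called 1 of 5 megakaryocyte markers, Ppbp, a platelet chemokine (0.49 to 3.92, limma adjusted p = 0.00633, on 3 and 42 reads). The summed megakaryocyte level was 83.7 to 184 in ST oil and 111 to 195 with tamoxifen. Of 5 macrophage and monocyte markers limma called 0 (3 under an unadjusted p of 0.05), edgeR 0 and DESeq2 1, and their summed level was 459 to 661 in oil and 533 to 636 with tamoxifen. Of 7 neutrophil, 4 B cell and 3 T and NK cell markers limma called 0 (0 under an unadjusted p of 0.05), and so did edgeR and DESeq2. Of 2 markers of stroma and endothelium limma called 0 (1 unadjusted), and edgeR and DESeq2 called 0. Of 10 stem and progenitor markers 1 was called by each tool, Mecom, a stem cell transcription factor (93.0 to 155, limma adjusted p = 0.00746). Of these 10 differences only 4 were above 0, with a median of -0.24, and 4 had an unadjusted limma p under 0.05. The part of these other cells and of red cell precursors in the Cpox and Alas1 values was not tested.

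**Figure D5:**
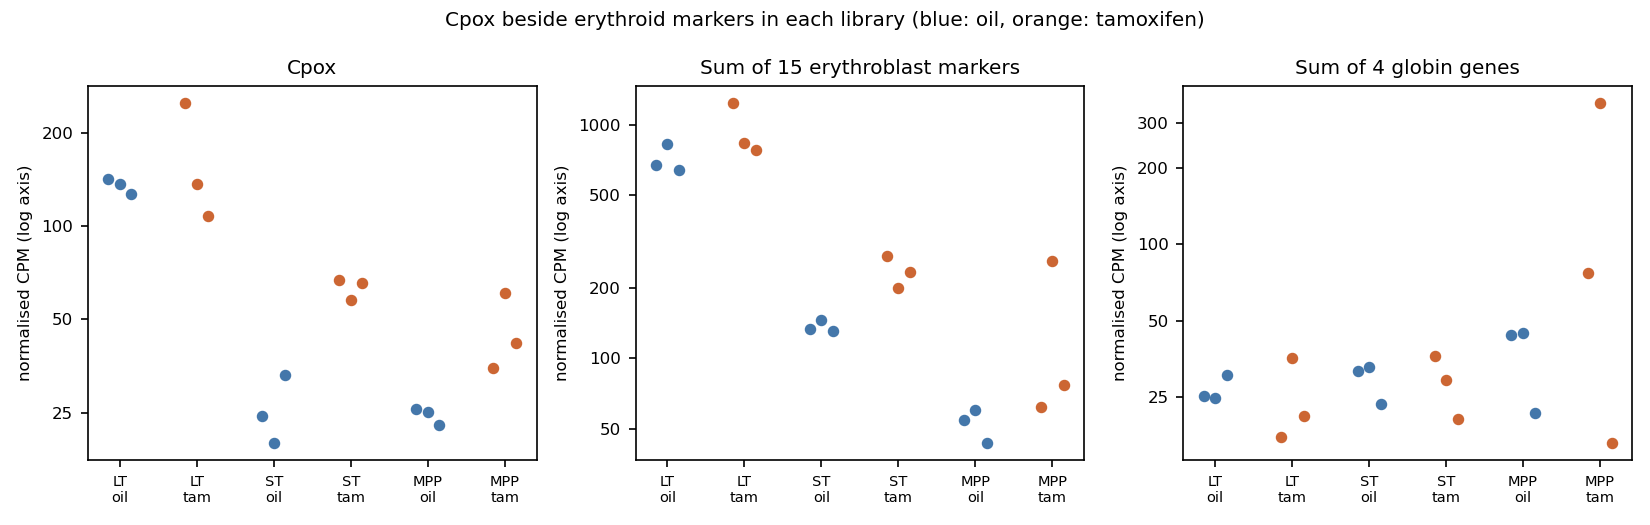
Cpox, the sum of 15 erythroblast markers and the sum of 4 globin genes in each library (log axes). ST tamoxifen libraries lie above ST oil libraries in the first 2 panels and overlap them in the third, where the globin sums are 20.5 to 36.4 against 23.5 to 32.8.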

How the data were processed

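RNA of 18 libraries (6 groups of 3) was extracted, reverse transcribed and amplified, per the labels' protocols. The submitters' processing notes name the build NCBIM37 and, as tools, cutadapt, Picard, limma and RSEM 1.17. The deposited table gives, per gene and library, a normalised signal on a linear scale, called normalised CPM here. The sources used here do not give its scaling, annotation or strand setting. Dividing by 1 constant per library and subtracting 0.5 turned the values into whole reads (100% of values, tolerance 0.001 read), so reads were recovered for count tests. RSEM gives fractional estimates, so these reads may be rounded. All genes had a value of 1 or more in 6 or more libraries, so the authors had left out low genes. No molecular identifiers were used, so any counting precision covers counting error only.

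Differences were tested on log2(value + 1) with limma 3.58.1 in R 4.3.3 (trend and robust settings, 1 fit of 6 groups, 12 residual degrees of freedom), with Benjamini-Hochberg adjustment over 14419 genes and a threshold of 0.05. edgeR 4.0.16 (quasi-likelihood, TMM) and DESeq2 1.42.0 were alternatives, as were pseudocounts of 0.25 and 4, a filter of 5 in 3 libraries, quantile normalisation, scaling without mitochondrial genes, library weights, a fit of the compared groups alone, limma without trend, a replicate block and leaving out libraries. The scripts were tested on simulated data. Levels per kb use exon lengths of GENCODE genes on GRCm38. Separateness of the libraries is stated only as biological replicates, so p-values set each difference against the spread between these libraries. In the limma fit that spread was estimated over all 6 groups, so a library outside the compared groups can change a call. The members and lists were chosen with earlier results of these data known. Named were all members, Alas2, Hba-a1, Hbb-b1 and Ermap, up to 3 genes per list that passed for tamoxifen, taken by smallest p, and the 2 genes most like each called member. Slamf1, Flt3, B4galt3, Hemgn, Epb4.2 and Trim10 are named outside that rule. Some results that the rule would name, and the list of haem transporters, are not reported here. The longer NRF1 motif was added after the promoter sequences had been seen.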

Additional observations from a re-analysis of the deposited data

How the results depend on the processing

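Low counts limit Uros most (13 to 63 reads per library). Of 937 single-member values recomputed under the alternatives, 880 kept their direction and side of the threshold, 24 newly passed, 16 no longer passed and 17 changed sign. With library weights 1 member passed for tamoxifen in MPP and 1 in the ST minus LT difference. Leaving out 1 library gave 0 to 1 members in MPP, 1 to 3 in ST (1 without ST oil C or ST tamoxifen C, 3 without LT tamoxifen A), 0 to 1 in ST minus LT, 2 to 5 in MPP against LT oil and 1 to 3 in MPP against ST oil. Signs changed with library weights for tamoxifen in LT (Alad 0.17, Cpox -0.07), with DESeq2 (Alad 0.00) and with quantile normalisation in MPP against ST oil (Alad 0.07, Cpox 0.03). Leaving out libraries also changed signs: for tamoxifen in MPP, Alas1 (-0.05 to 0.51) and Ppox (-0.01 to 0.20); in LT, Alas1 (-0.36 to 0.04), Alad (-0.48 to 0.26), Uros (-0.42 to 0.07), Urod (-0.01 to 0.44) and Cpox (-0.15 to 0.44); in ST, Ppox (-0.15 to 0.04); in MPP against ST oil, Alad (-0.47 to 0.13) and Cpox (-0.21 to 0.14). The cause was not tested. Over all genes the number called ran from 654 to 2121 for tamoxifen in ST (1386 as reported), 3 to 330 in LT (60), 0 to 67 in MPP (8), 0 to 125 in ST minus LT (8), 0 to 164 in ST minus MPP (1), 0 to 11 in LT minus MPP (0), and 1467 to 3568 in MPP against LT oil (2130).

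Same-numbered oil and tamoxifen libraries did not all deviate together (correlations from -0.10 to 0.24), so the numbers were not taken as pairs. In MPP each library was best matched to its own number (0.13, 0.07 and 0.24), as a hint from the data only. With the replicate block the members called were 2 for tamoxifen in ST, 0 in LT and MPP, 4 in ST against LT oil and 6 in MPP against LT oil. Under this replicate block Alas1 (adjusted p = 0.0277) and Alad (0.0333) newly passed in MPP against LT oil and Alad in ST against LT oil (0.0407). LT and ST libraries with the same letter correlated at 0.08 to 0.16, and each was best matched to its own letter. A replicate block with letters shared by LT and ST, chosen after seeing the data, gave 2 for tamoxifen in ST, 3 in ST against LT oil and 5 in MPP against LT oil, where Alas1 newly passed (0.0212).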

Other observations

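Among 7208 genes compared on the pattern of log2(value + 1) over the 18 libraries, each centred on its own mean, the closest to Alas1 were Pbk and Dlgap5, genes of dividing cells. Their root mean square differences were 0.33 and 0.34, where Alas1 itself varied by 0.79 around its mean (median over the candidates 0.85). The closest genes lie below that median by construction. Pbk averaged 64.0 in ST oil and 108 in ST tamoxifen. It averaged 25.8 in LT oil and 32.6 in LT tamoxifen, where Alas1 averaged 18.2 and 16.3. A link of Alas1 to cell division was not tested. The closest to Cpox were Asns, asparagine synthetase, and Ctse, an aspartic protease, at 0.23 and 0.31 (Cpox around its own mean 1.07, median 1.10). Asns averaged 47.9 in LT oil, 9.40 in ST oil, 21.9 in ST tamoxifen, 6.52 in MPP oil and 15.4 in MPP tamoxifen.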
